A study of Mus musculus with 52 samples.

Results

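A set of 37 mouse aminoacyl-tRNA synthetase genes was followed through 52 RNA-seq libraries of brain and of cultured astrocytes. They were taken by name: an amino acid letter followed by "ars", with Eprs, Farsa, Farsb and Fars2 added, and names ending in 2 counted as mitochondrial. The rule used no measured value. It found the same 37 genes in every table, 20 cytosolic and 17 mitochondrial, among 53700 genes in the astrocyte table, 55487 in each of the first KA brain table and the CNO brain table, and 34042 in the second KA brain table. All 37 passed the filter on low values in every table. The rule leaves out Tarsl2, a threonyl-tRNA synthetase-like gene.

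An aminoacyl-tRNA synthetase joins its amino acid to the matching transfer RNAs, the step that supplies the ribosome with building blocks. The cytosolic enzymes serve translation of nuclear genes, and the mitochondrial enzymes, which are also encoded in the nucleus, serve translation of the mitochondrial genome. Gars and Kars, the glycine and lysine enzymes, are known to work in both compartments and are counted as cytosolic by their names. Eprs carries the glutamate and the proline activities on a single protein, and Farsa and Farsb are the subunits of the phenylalanine enzyme. In mammals Dars, Eprs, Iars, Kars, Lars, Mars1, Qars and Rars are held in the multi-synthetase complex by the scaffold proteins Aimp1, Aimp2 and Eef1e1. Many cytosolic synthetase genes are known targets of ATF4, a transcription factor made when cells lack amino acids or when the endoplasmic reticulum is stressed.

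All libraries came from C57BL/6 mice. The astrocytes, cells that support neurons, formed 9 groups of 3 libraries. APOE KO astrocytes, which lack apolipoprotein E, a lipid carrier that astrocytes secrete, were given oleic acid, palmitic acid or neuronal conditioned medium, or were left untreated. Wild type astrocytes were given oleic acid, palmitic acid, medium from APOE KO neurons or medium from normal neurons, or were left untreated. Palmitic acid is a saturated fatty acid, and oleic acid is a monounsaturated one. The brain libraries came from a KA-induced TLE model and a CNO-induced epileptic model. In the first KA cohort 3 libraries were treated with KA and 3 were untreated, and in the CNO set 3 were treated with CNO and 3 were untreated. In the second KA cohort 3 libraries had the APOE knockout with KA, 3 an A2aR knockdown with KA and 4 KA alone, and 3 were untreated. Ages, doses, exposure times, the brain region, the means of the knockdown and the receptor on which CNO acted are unstated in these sources. The titles of the medium libraries carry the letters KA, and whether those neurons received KA is not stated. The labels do not tell whether a group's libraries are different animals or culture dishes. The spread that each p-value rests on may therefore be technical.

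Several facts of the libraries bear on the synthetases. Apoe was 5.36 to 118 TPM (transcript abundance scaled to the same total in every library) in APOE KO astrocytes, against 2221 to 5024 TPM in wild type astrocytes. The APOE KO libraries given palmitic acid stood apart: 12057 to 12915 genes reached 1 TPM in them, against 13721 to 14652 in the other astrocyte libraries. Summed astrocyte markers were 59.5 to 78.3 TPM in those libraries, against 461 to 473 TPM in untreated APOE KO astrocytes. In wild type cells the same sum was 1045 to 1077 TPM with oleic acid and 641 to 786 TPM with palmitic acid, against 1942 to 2186 TPM untreated. Summed fibroblast and mural markers were 3853 to 3919 TPM in untreated APOE KO and 4191 to 4613 TPM in untreated wild type cultures, nearly all of it Acta2 and Col1a1, with Lum at 4.82 and 0.453 TPM. Which cells these came from was not tested. In the second KA cohort the 3 untreated libraries had the female pattern of Xist and Ddx3y and all KA-treated libraries the male pattern (Xist at most 0.310 TPM with KA and at least 122 TPM untreated), so sex and KA cannot be told apart there. Sex-linked genes also differed between astrocyte groups: Xist was 2.79 to 3.81 TPM in untreated APOE KO and 30.7 to 36.8 TPM in untreated wild type cultures. Ddx3y was 31.3 to 33.5 TPM in untreated APOE KO and 14.9 to 19.1 TPM in untreated wild type cultures, and 0.52 to 1.35 TPM in wild type cultures with oleic acid. With palmitic acid Xist was 15.5 to 21.0 TPM and Ddx3y 3.22 to 4.49 TPM in wild type cultures. In APOE KO cultures with palmitic acid Xist was at most 0.05 TPM and Ddx3y 1.86 to 15.7 TPM. The part of these sex-linked differences in the results was not tested. The titles of library 3 of the untreated APOE KO and of the APOE KO palmitic astrocytes carry the word mix, which no label explains.

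Promoter windows are shown first, so that a motif of the ATF4 type can be set beside the responses of the genes. RefSeq (GRCm38.p6) gave a window of 300 bases, 250 before and 50 after the transcription start, for 27 of the 37 genes, so each covers the promoter and the first transcribed bases. Windows of Cars, Hars, Hars2, Lars, Nars, Pars2, Rars, Vars and Wars were not used here. The motif searched was TGATGNAA, with N any base, on both strands. It was present in 1304 of 32851 windows of all genes (3.97%), in 5 of 13 cytosolic synthetase genes (38.5%) and in 0 of 14 mitochondrial ones. The 5 genes are Aars (alanine, chr8:111033592-111033891, plus strand), Gars (glycine, chr6:55037751-55038050, plus strand), Iars (isoleucine, chr13:49681880-49682179, plus strand), Tars (threonine, chr15:11399609-11399908, minus strand) and Yars (tyrosine, chr4:129189653-129189952, plus strand). Their windows follow 5′ to 3′ on the gene's strand, with matches in capitals.
Aars: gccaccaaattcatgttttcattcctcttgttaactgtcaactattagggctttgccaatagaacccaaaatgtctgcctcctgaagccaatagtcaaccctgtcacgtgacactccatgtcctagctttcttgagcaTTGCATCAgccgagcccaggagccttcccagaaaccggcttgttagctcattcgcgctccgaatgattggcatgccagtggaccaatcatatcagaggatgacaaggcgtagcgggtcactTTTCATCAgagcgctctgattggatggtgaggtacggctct
Gars: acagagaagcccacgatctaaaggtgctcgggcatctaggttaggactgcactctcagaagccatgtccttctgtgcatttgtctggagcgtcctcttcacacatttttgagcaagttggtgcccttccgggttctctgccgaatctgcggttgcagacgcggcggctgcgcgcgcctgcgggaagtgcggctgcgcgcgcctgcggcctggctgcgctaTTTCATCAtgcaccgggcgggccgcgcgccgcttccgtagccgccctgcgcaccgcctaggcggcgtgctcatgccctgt
Iars: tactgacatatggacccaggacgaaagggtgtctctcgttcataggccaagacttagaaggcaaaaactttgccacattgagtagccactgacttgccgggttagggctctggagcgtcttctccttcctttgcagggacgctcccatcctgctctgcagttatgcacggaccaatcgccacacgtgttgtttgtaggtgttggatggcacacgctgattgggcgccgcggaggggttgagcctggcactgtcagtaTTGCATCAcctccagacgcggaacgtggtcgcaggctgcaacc
Tars: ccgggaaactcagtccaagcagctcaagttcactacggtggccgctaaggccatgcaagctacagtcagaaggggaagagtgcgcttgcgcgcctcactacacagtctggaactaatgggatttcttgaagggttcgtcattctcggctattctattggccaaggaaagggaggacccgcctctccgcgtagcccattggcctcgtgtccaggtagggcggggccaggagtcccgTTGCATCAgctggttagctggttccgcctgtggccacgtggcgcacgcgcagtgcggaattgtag
Yars: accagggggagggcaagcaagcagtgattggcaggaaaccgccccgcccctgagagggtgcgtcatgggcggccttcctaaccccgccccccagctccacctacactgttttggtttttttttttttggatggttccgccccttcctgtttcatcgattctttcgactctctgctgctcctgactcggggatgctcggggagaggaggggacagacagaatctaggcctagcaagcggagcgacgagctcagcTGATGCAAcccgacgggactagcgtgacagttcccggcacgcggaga
Aars held 2 matches, which began 112 bases before the start and 10 bases after it. The match began 30 bases before the start in Gars and 15 bases before it in Tars, and 8 bases after the start in Iars and 4 in Yars. The windows of Dars (aspartate, chr1:128417367-128417666, minus strand) and Qars (glutamine, chr9:108507755-108508054, plus strand) are set beside them, since these were the cytosolic genes that did not pass the test for palmitic acid in wild type cells. Neither window holds the 8 letters, which says nothing more about the factor. The windows of Mars1, Sars, Farsb, Kars, Eprs and Farsa hold none either, and Mars1 and Sars rose by 1.84 and 1.77 on the log2 scale with palmitic acid.
Dars: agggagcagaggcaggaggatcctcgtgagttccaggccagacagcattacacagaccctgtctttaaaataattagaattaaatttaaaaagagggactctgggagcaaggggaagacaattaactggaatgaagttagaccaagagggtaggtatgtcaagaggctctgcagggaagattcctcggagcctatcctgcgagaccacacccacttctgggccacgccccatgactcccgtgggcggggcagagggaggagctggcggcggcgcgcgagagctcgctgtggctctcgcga
Qars: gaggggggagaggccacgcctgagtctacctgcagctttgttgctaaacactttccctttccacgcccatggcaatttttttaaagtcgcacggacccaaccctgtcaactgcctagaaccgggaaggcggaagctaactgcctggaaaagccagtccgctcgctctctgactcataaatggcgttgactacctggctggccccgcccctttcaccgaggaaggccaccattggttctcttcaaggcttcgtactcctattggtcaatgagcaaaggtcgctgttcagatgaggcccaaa

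Cytosolic enzymes were far more abundant than mitochondrial ones in untreated wild type astrocytes. Their 20 levels summed to 1304 ± 32.6 TPM, and the 16 mitochondrial enzymes other than Lars2 to 217 ± 3.23 TPM (SD, n = 3). Sars, the serine enzyme, was the highest cytosolic gene at 141 ± 4.24 TPM, followed by Dars at 122 ± 4.09 TPM, Qars at 106 ± 13.8 TPM and Nars (asparagine) at 101 ± 2.79 TPM. Qars and Nars overlapped in their libraries. The lowest cytosolic gene was Cars, the cysteine enzyme, at 33.6 ± 2.78 TPM, just under Tars at 34.8 ± 1.84 TPM. Among mitochondrial enzymes Mars2 (methionine) was lowest at 2.95 ± 0.42 TPM and Iars2 reached 35.1 ± 1.54 TPM. Lars2, the mitochondrial leucine enzyme, was listed at 150 ± 9.58 TPM, but it varied from 82.3 to 368 TPM over the 27 astrocyte libraries. Its coefficient of variation reached 60.6% between APOE KO libraries given palmitic acid, the highest of any member in any astrocyte group. Over all synthetases and astrocyte groups the median coefficient of variation between libraries was 5.68%.

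**Figure D1:**
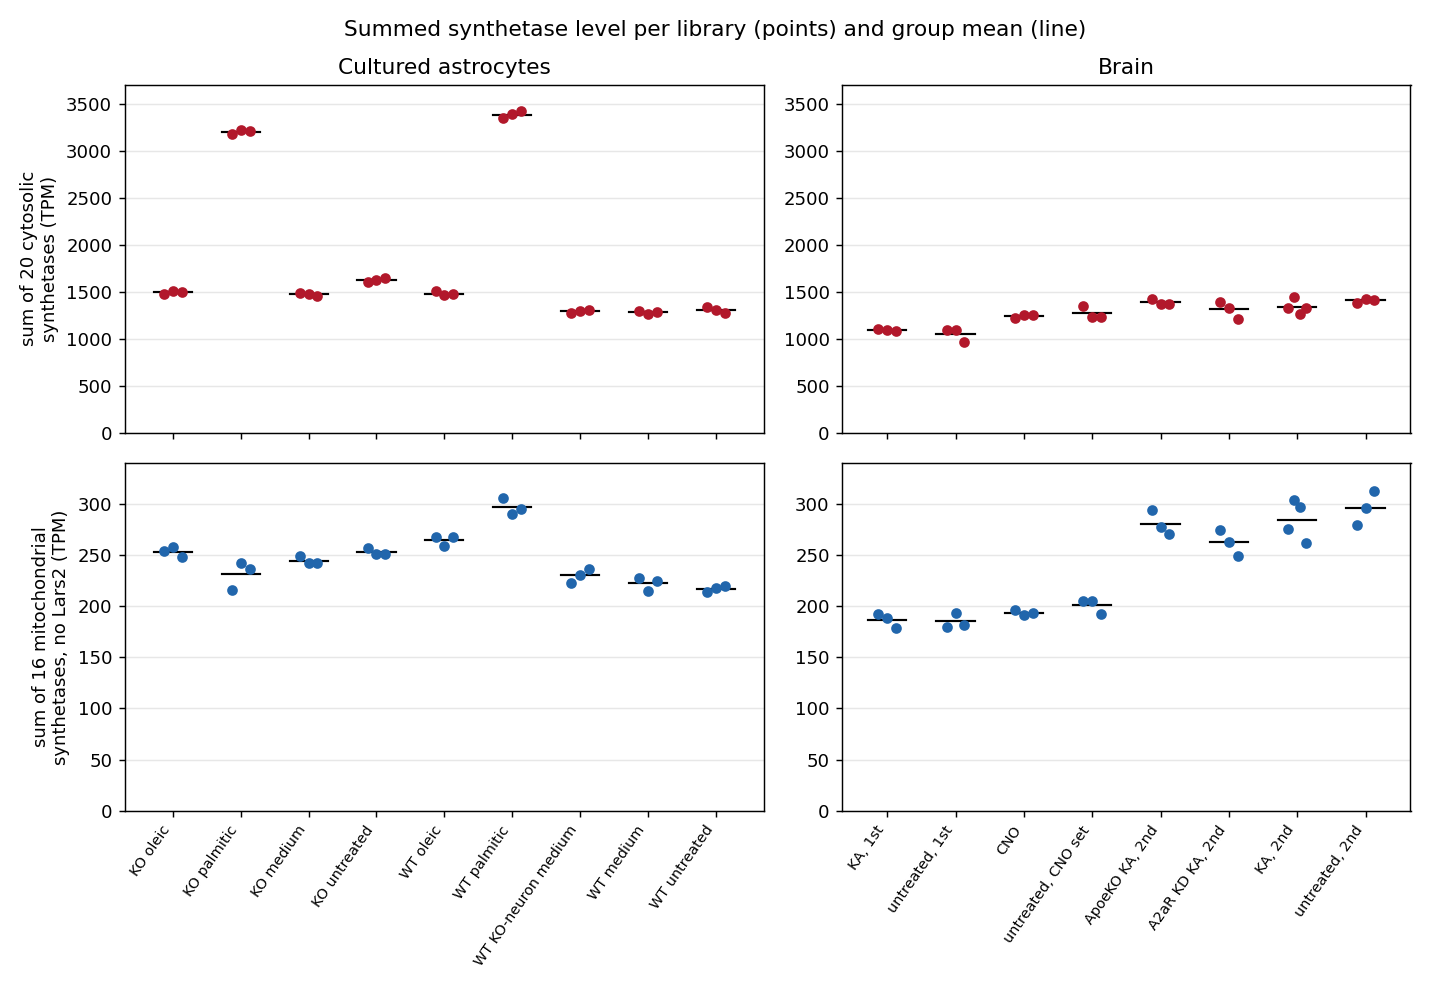
Summed TPM of the 20 cytosolic synthetases (upper panels) and of 16 mitochondrial synthetases without Lars2 (lower panels), per library (points) with group means (lines), in cultured astrocytes (left) and brain (right). The 6 palmitic acid libraries lie between 3181 and 3420 TPM in the cytosolic sum, above every other library, and in the cytosolic sum the treated and untreated brain libraries of each set overlap.

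Palmitic acid raised nearly the whole cytosolic set in wild type astrocytes. The cytosolic sum was 3384 ± 37.7 TPM with palmitic acid and 1304 ± 32.6 TPM untreated (SD, n = 3 each), a 2.60-fold difference. Of the 20 cytosolic genes 18 rose and none fell at an adjusted p under 0.05 (limma on log2(TPM + 1), Benjamini-Hochberg over all genes tested). Of the 17 mitochondrial genes 7 rose and 1 fell. Over all 16161 genes tested 26.8% were higher and 33.1% lower, together 59.8%, so a call by itself is common here. The size is less so: the median log2 difference was 1.63 for cytosolic and 0.28 for mitochondrial genes, against −0.08 for all genes.

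Gars measured 285, 289 and 289 TPM with palmitic acid, against 71.5, 70.0 and 70.2 TPM untreated. Its log2 difference was 2.01 ± 0.04 (SE, limma adjusted p = 2.4e-20). The groups are far apart and libraries of a group differ by little. Cars, the gene lowest in untreated cells, measured 148, 154 and 147 TPM with palmitic acid, against 36.5, 31.0 and 33.1 TPM untreated. It had the largest difference of the family, 2.13 ± 0.10 (limma adjusted p = 3.6e-14). Sars measured 476, 464 and 516 TPM, against 145, 143 and 137 TPM untreated, and stayed the most abundant cytosolic member. Wars, the tryptophan enzyme, measured 211, 204 and 214 TPM with palmitic acid, against 56.1, 58.6 and 50.8 TPM untreated, a difference of 1.91 ± 0.06 (limma adjusted p = 2.6e-16). Mars1, the methionine enzyme, rose by 1.84 ± 0.09 and Aars by 1.80 ± 0.06 (limma adjusted p = 3.7e-13 and 2.7e-16). Reads of Mars1 cannot be told apart from those of Ddit3 where the 2 genes overlap by 68 bases on opposite strands, since the counting's use of strand is not stated, and Ddit3 itself rose. Aars likewise shares 1326 bases with Exosc6 on the same strand, and Iars resembles the pseudogene Gm4849 over 1656 bases (96.0% identity). Iars, Yars, Rars, Tars, Nars, Lars, Vars, Farsb, Kars, Eprs, Farsa and Hars, which charge isoleucine, tyrosine, arginine, threonine, asparagine, leucine, valine, phenylalanine, lysine, glutamate with proline, phenylalanine and histidine, rose by 0.70 to 1.77. In all 18 the lowest palmitic library lay above the highest untreated library. The share of all genes without overlap was not counted, here or in later comparisons, so such a gap may be common.

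The exceptions both belong to the multi-synthetase complex. Dars measured 93.0, 99.8 and 93.2 TPM with palmitic acid, against 125, 117 and 123 TPM untreated. Its groups did not overlap, but the log2 difference of −0.35 ± 0.19 did not pass (limma adjusted p = 0.12). Qars measured 109, 120 and 114 TPM, against 120, 106 and 92.5 TPM untreated, and its groups overlapped (0.11 ± 0.08, limma adjusted p = 0.28). Counting by complex, 6 of its 8 enzymes rose, with a median of 1.13, as did all 12 cytosolic enzymes outside it, with a median of 1.72. The scaffold genes rose as well, Aimp2 by 1.19 ± 0.07, Eef1e1 by 1.37 ± 0.15 and Aimp1 by 0.52 ± 0.08 (limma adjusted p at most 4e-06).

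Ears2, the mitochondrial glutamate enzyme, had the largest mitochondrial rise. It measured 15.4, 16.1 and 16.1 TPM with palmitic acid, against 5.40, 6.50 and 5.27 TPM untreated, a log2 difference of 1.33 ± 0.09 (limma adjusted p = 1.6e-11). Yars2 rose by 1.12 ± 0.10, Tars2 by 1.00 ± 0.08, Nars2 by 0.83 ± 0.13, Sars2 by 0.66 ± 0.11, Aars2 by 0.62 ± 0.11 and Pars2 by 0.57 ± 0.16, all without overlap between groups. Cars2 fell by 0.22 ± 0.09 (limma adjusted p = 0.049), but its groups overlapped, and the call was lost under median-ratio scaling (−0.14, adjusted p = 0.22) and when single libraries were left out. The mitochondrial sum without Lars2 was 297 ± 8.13 TPM with palmitic acid and 217 ± 3.23 TPM untreated, 1.37-fold. Reads of Ears2 and Ubfd1 can be shared over 89 bases. The ribosome of the same compartment moved by a similar amount: 39 of 52 mitochondrial ribosome genes rose and 2 fell, with a median of 0.38.

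Known partners of the synthetases were scored from lists chosen with earlier results of these data known. Of 31 genes of ATF4 and the amino acid response, 29 rose and 1 fell with palmitic acid in wild type cells, with a median log2 difference of 2.29. Asns, the asparagine synthetase, averaged 311 TPM with palmitic acid and 29.9 TPM untreated, Atf4 itself 818 and 115 TPM, Ddit3 522 and 39.6 TPM, and the phosphatase subunit Ppp1r15a 249 and 24.7 TPM. Of 8 genes of the unfolded protein response of the endoplasmic reticulum, 7 rose, with a median of 1.55 and with Herpud1 at 217 TPM with palmitic acid and 44.1 TPM untreated. Of 15 other genes of tRNA charging and editing, 6 rose and 1 fell, with a median of 0.09. Of 12 interferon response genes 5 rose, with a median of 0.32, and Cxcl10 averaged 109 TPM with palmitic acid and 16.3 TPM untreated. Other measures moved with palmitic acid in wild type cells. Astrocyte markers were lower, as given above, and the fibroblast and mural sum was 1393 to 1617 TPM with palmitic acid, against 4191 to 4613 TPM untreated. Microglia markers summed to 499 to 566 TPM with palmitic acid and 308 to 337 TPM untreated. Mitochondrially encoded genes held 3.48 to 4.17% of TPM with palmitic acid and 5.52 to 6.83% untreated. The part of these shifts in the results was not tested.

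**Figure D2:**
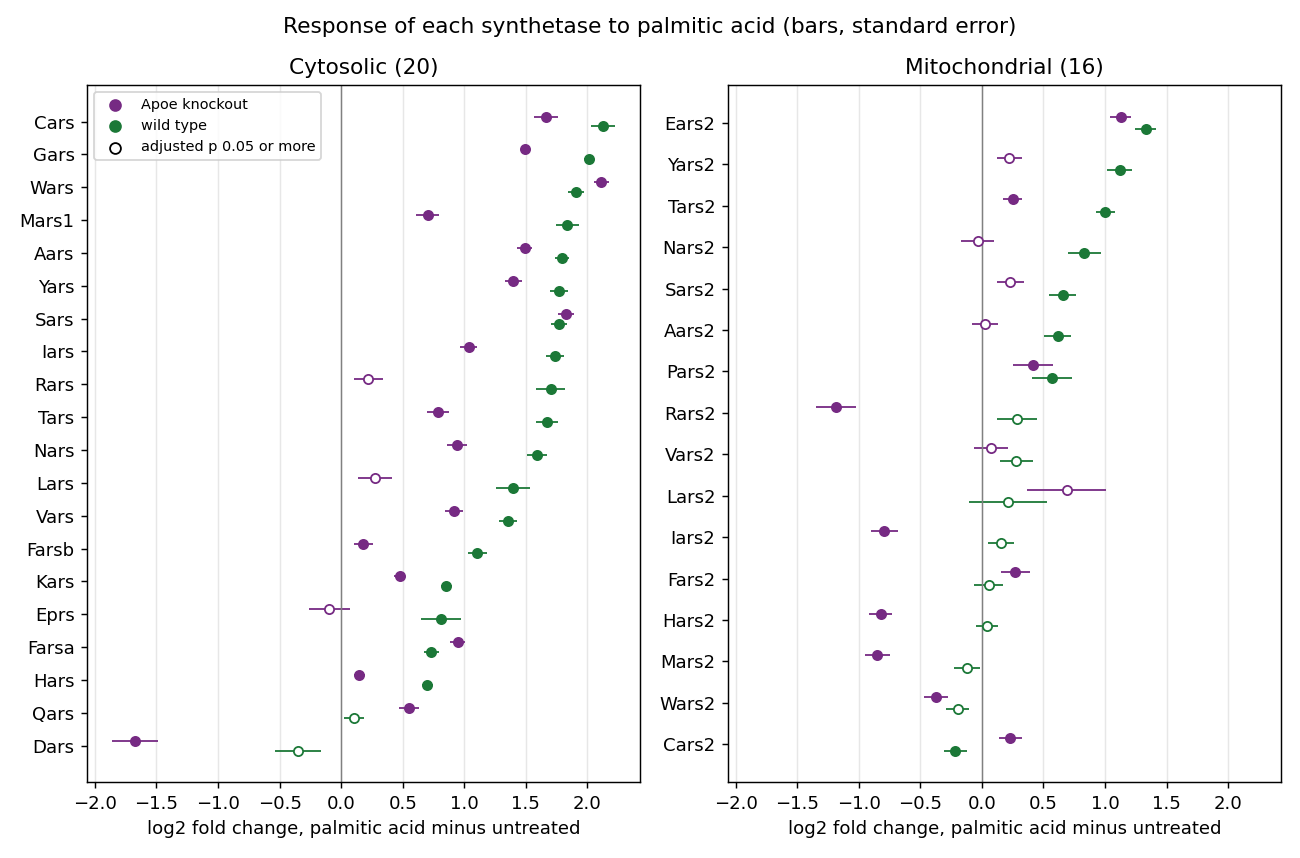
Log2 difference of palmitic acid minus untreated for 20 cytosolic (left) and 16 mitochondrial (right) synthetases in APOE KO (purple) and wild type (green) astrocytes, with standard errors as bars and open circles where the adjusted p was 0.05 or more. Cytosolic genes lie between −0.35 and 2.13 in wild type cells and between −1.67 and 2.12 in APOE KO cells, and the mitochondrial genes gather nearer to 0.

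In APOE KO astrocytes palmitic acid raised most cytosolic synthetases, and mitochondrial ones moved in both directions. The cytosolic sum was 3204 ± 19.5 TPM with palmitic acid and 1623 ± 16.4 TPM untreated, 1.97-fold. The mitochondrial sum without Lars2 was 232 ± 13.7 TPM with palmitic acid and 253 ± 3.34 TPM untreated. With Lars2, which varied widely between these libraries, it was 450 ± 119 TPM and 374 ± 19.5 TPM, so its direction depends on that gene. Of the cytosolic genes 16 rose and 1 fell, and of the mitochondrial genes 5 rose and 6 fell (limma). Of all genes tested 75.3% passed, 19.9% higher and 55.4% lower, and the median log2 difference of all genes was −0.47, against 0.85 for cytosolic and 0.07 for mitochondrial genes. This median depends on scaling. With libraries scaled by median ratios it was −0.08, the cytosolic median 1.41 and the mitochondrial median 0.60, and 30 synthetases rose and 5 fell in place of 21 and 7.

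Wars, Sars, Cars, Gars, Aars and Yars led the rises. Wars measured 254, 235 and 246 TPM with palmitic acid, against 54.9, 58.3 and 54.1 TPM in untreated APOE KO cells (2.12 ± 0.06, limma adjusted p = 1.7e-17). Sars measured 685, 586 and 627 TPM, against 172, 182 and 177 TPM untreated (1.83 ± 0.06, limma adjusted p = 3.1e-16), the highest levels of any synthetase in the series. Gars measured 301, 285 and 296 TPM, against 101, 104 and 106 TPM untreated (1.5 ± 0.04, limma adjusted p = 6.9e-19). Cars rose by 1.66 ± 0.10, Aars by 1.49 ± 0.06 and Yars by 1.40 ± 0.07. All 12 cytosolic enzymes outside the multi-synthetase complex rose, with a median of 1.17.

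Within the complex 4 of the 8 enzymes rose, 1 fell and 3 did not pass. Dars measured 20.9, 46.2 and 37.5 TPM with palmitic acid, against 109, 106 and 109 TPM untreated, a log2 difference of −1.67 ± 0.19 (limma adjusted p = 6.1e-08). Every palmitic library lay below every untreated one, and the difference was −1.13 under median-ratio scaling. Eprs measured 48.5, 93.5 and 74.8 TPM, against 76.3, 73.2 and 74.6 TPM untreated, with overlap (−0.10 ± 0.17, limma adjusted p = 0.61). Rars measured 69.8, 106 and 91.7 TPM, against 75.0, 76.7 and 73.8 TPM untreated (0.22 ± 0.12, limma adjusted p = 0.10), and Lars 53.1, 91.4 and 75.5 TPM, against 60.5, 56.9 and 59.4 TPM untreated (0.28 ± 0.14, limma adjusted p = 0.078). In Dars, Eprs, Rars and Lars palmitic library 1 was the lowest and library 2 the highest of the 3. The libraries stood in the same order in genes at 1 TPM or more (12057, 12915 and 12693 in libraries 1, 2 and 3). Mitochondrially encoded genes held 1.51, 2.94 and 2.58% of their TPM. The part of these library differences was not tested. Qars, by contrast, rose by 0.55 ± 0.08, with 228, 195 and 212 TPM, against 139, 143 and 149 TPM untreated (limma adjusted p = 3.3e-06).

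Among mitochondrial enzymes Ears2 rose here too, with 15.2, 13.7 and 14.7 TPM with palmitic acid, against 5.78, 6.33 and 6.23 TPM untreated (1.13 ± 0.09, limma adjusted p = 1.6e-10). Pars2, Fars2, Tars2 and Cars2 rose by 0.23 to 0.41. Rars2, the mitochondrial arginine enzyme, measured 6.92, 12.9 and 10.7 TPM with palmitic acid, against 25.3, 23.4 and 22.6 TPM untreated (−1.19 ± 0.16, limma adjusted p = 1.4e-06). Mars2 was at 0.77 to 1.22 TPM, against 2.48 to 2.57 TPM untreated (−0.85 ± 0.10). Hars2 fell by 0.82 ± 0.09, Iars2 by 0.79 ± 0.11 and Wars2 by 0.37 ± 0.10. Under median-ratio scaling the falls of Rars2, Mars2, Hars2 and Iars2 were smaller (−0.67, −0.55, −0.29 and −0.25) but still passed, and the fall of Wars2 was not among the 5 that did. Iars2 overlaps Rab3gap2 by 2034 bases and Hars2 overlaps Hars by 198 bases, on opposite strands. Cars2 likewise overlaps Naxd by 984 bases and Farsb overlaps Sgpp2 by 2315 bases. Reads there can be shared, since the use of strand is not stated.

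The partner lists moved in these cells too: 28 of 31 ATF4 and amino acid response genes rose and 1 fell, with a median of 1.81, and all 8 unfolded protein response genes rose, with a median of 2.33. Atf4 averaged 701 TPM with palmitic acid and 151 TPM untreated, and Asns 293 and 55.5 TPM. Of the scaffold genes Aimp2 and Eef1e1 rose, by 0.85 ± 0.07 and 0.60 ± 0.15. Of 52 mitochondrial ribosome genes 24 rose and 13 fell, with a median of 0.13. Of 15 other tRNA charging genes 4 rose and 6 fell, and Tarsl2, a threonyl-tRNA synthetase-like gene outside the naming rule, averaged 1.99 TPM with palmitic acid and 14.4 TPM untreated. Of 12 interferon genes 3 rose and 4 fell. In the palmitic libraries the fibroblast and mural sum was 642 to 713 TPM, against 3853 to 3919 TPM untreated, microglia markers summed to 91.4 to 96.7 TPM, against 257 to 270 TPM untreated, and mitochondrially encoded genes held 1.51 to 2.94% of TPM, against 6.41 to 6.64% untreated. The part of these shifts and of the lower astrocyte markers in the results was not tested.

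The effect of palmitic acid was compared between genotypes by an interaction term, APOE KO minus wild type. It was lower for 26 synthetases and higher for 3, where 43.2% of all genes were lower and 14.3% higher, together 57.6%, and the median over all genes was −0.35. With median-ratio scaling, which set the all-gene median at 0.03, it was lower for 14 and higher for 6. Rars was at −1.48 ± 0.17 (limma adjusted p = 3.0e-07) and Rars2 at −1.47 ± 0.23, the lowest values and not apart by their errors. For Rars, wild type cells measured 154, 164 and 167 TPM with palmitic acid, against 54.0, 46.7 and 46.5 TPM untreated, while the APOE KO values above overlapped. Dars (−1.32 ± 0.26), Mars1 (−1.13 ± 0.13), Lars (−1.12 ± 0.20) and Iars2 (−0.95 ± 0.15) followed. Qars (0.45 ± 0.12), Cars2 (0.45 ± 0.13) and Farsa (0.21 ± 0.09) were higher. Under median-ratio scaling all 9 kept direction and call, at −1.03 for Rars2, −1.0 for Rars, −0.86 for Dars, −0.66 for Mars1, −0.64 for Lars and −0.48 for Iars2, and at 0.93 for Qars, 0.91 for Cars2 and 0.69 for Farsa. Farsa lost its call with only the groups compared and without any of 8 single libraries. For Sars (0.06 ± 0.09, limma adjusted p = 0.59) and Wars (0.21 ± 0.09, limma adjusted p = 0.051) the term did not pass. The palmitic responses of the genotypes share no libraries, and 18 genes rose in both, 72.0% of the 25 that rose in wild type and 85.7% of the 21 that rose in APOE KO cells. None fell in both, since the single fall in wild type cells, that of Cars2, was a rise in APOE KO cells. Calls common to both genotypes were not counted over all genes, for palmitic or for oleic acid. Whether synthetases share more of them than other genes is therefore not known.

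**Figure D3:**
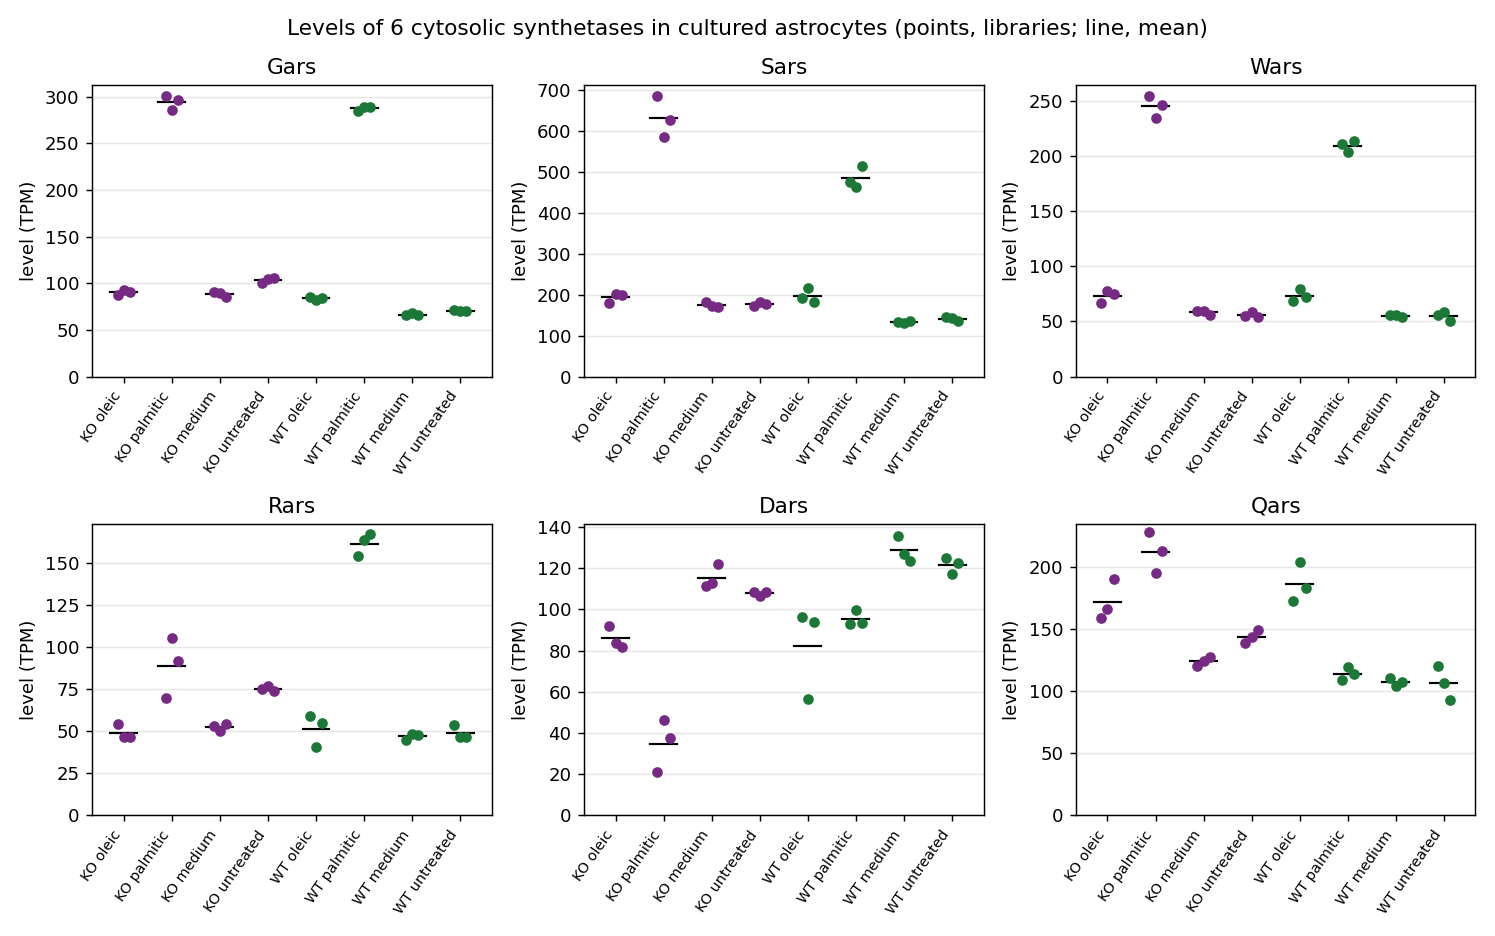
TPM of 6 cytosolic synthetases per library (points) with group means (lines) in 8 of the 9 astrocyte groups, APOE KO in purple and wild type in green. Gars, Sars and Wars are high with palmitic acid in both genotypes, Rars mainly in wild type cells at 154 to 167 TPM, Dars is lowest in APOE KO cells with palmitic acid at 20.9 to 46.2 TPM, and Qars is highest in APOE KO cells with palmitic acid at 195 to 228 TPM, followed by the oleic acid groups at 159 to 204 TPM.

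Differences with oleic acid were smaller and of both signs, and the share of synthetases called, 23 of 37 in wild type and 15 of 37 in APOE KO cells, was near that of all genes. In wild type astrocytes the cytosolic sum was 1480 ± 21.5 TPM with oleic acid and 1304 ± 32.6 TPM untreated, 1.13-fold, and the mitochondrial sum without Lars2 was 265 ± 4.92 TPM with oleic acid and 217 ± 3.23 TPM untreated, 1.22-fold. Of the cytosolic genes 10 rose and 3 fell and of the mitochondrial genes 8 rose and 2 fell (limma), where 59.8% of all genes passed, 31.2% higher and 28.6% lower. The medians were 0.19 for cytosolic, 0.21 for mitochondrial and 0.00 for all genes.

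Qars, which did not pass with palmitic acid in these cells, had the largest rise. It measured 173, 204 and 183 TPM with oleic acid, against 120, 106 and 92.5 TPM untreated (0.81 ± 0.08, limma adjusted p = 3.5e-08). Every oleic library lay above every untreated one. Vars2 rose by 0.68 ± 0.14, Aars2 by 0.58 ± 0.11, Yars by 0.50 ± 0.07 and Fars2 by 0.49 ± 0.12. Eprs measured 38.9, 23.8 and 38.5 TPM with oleic acid, against 62.5, 57.5 and 59.3 TPM untreated (−0.84 ± 0.17, limma adjusted p = 0.00018). Dars measured 96.4, 56.8 and 93.7 TPM, against 125, 117 and 123 TPM untreated (−0.60 ± 0.19, limma adjusted p = 0.0092). Lars, Mars2 and Wars2 fell by 0.33, 0.27 and 0.23, with overlap between groups. Oleic library 2 was the lowest of the 3 for Eprs, Dars and Lars. It also had 13784 genes at 1 TPM or more, against 14088 and 14089 in libraries 1 and 3. Mitochondrially encoded genes held 2.96% of its TPM, against 3.98 and 3.95%, and the part of this was not tested. Without library 2 the difference of Dars was −0.35. Dars, Lars, Mars2 and Wars2 then no longer passed, leaving 17 rises and 1 fall. Lars, Mars2 and Wars2 also lost their calls with no filter, with only the groups compared and without several other single libraries, and Lars and Wars2 under the replicate block.

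In APOE KO astrocytes oleic acid gave a cytosolic sum of 1493 ± 14.5 TPM, against 1623 ± 16.4 TPM untreated, 0.920-fold. Of the cytosolic genes 3 rose and 7 fell and of the mitochondrial genes 4 rose and 1 fell (limma), where 41.8% of all genes passed, 21.7% higher and 20.1% lower. With median-ratio scaling 4 synthetases rose and 8 fell, in place of 7 and 8. Over all genes the log2 difference correlated with transcript length at −0.355 (Spearman), against −0.14 over the 37 synthetases. The part of length in these results was not tested. Eprs measured 38.2, 40.3 and 37.3 TPM with oleic acid, against 76.3, 73.2 and 74.6 TPM untreated (−0.94 ± 0.17, limma adjusted p = 0.00017). Lars fell by 0.72 ± 0.14, Tars by 0.65 ± 0.09, Rars by 0.61 ± 0.12, Iars by 0.53 ± 0.07 and Hars2 by 0.45 ± 0.09, and Nars and Gars by 0.44 and 0.19. Pars2 rose by 0.46 ± 0.16, Wars by 0.38 ± 0.06, Vars2 by 0.36 ± 0.14, Fars2 by 0.30 ± 0.12, Qars by 0.25 ± 0.08 and Farsa by 0.18 ± 0.06. The calls of Fars2 and Qars were lost under median-ratio scaling, and those of Pars2, Vars2, Fars2 and Qars when single libraries were left out. Eprs and Lars fell with oleic acid in both genotypes, which is 40.0% of the 5 falls in wild type and 25.0% of the 8 in APOE KO cells. The interaction term was lower in APOE KO cells for 13 synthetases and higher for none (29.6% of all genes passed, 15.8% lower), led by Iars at −0.67 ± 0.10 and Rars at −0.66 ± 0.17.

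The partner lists with oleic acid were mixed as well. In wild type cells 15 ATF4 and amino acid response genes rose and 13 fell, with a median of 0.20, and in APOE KO cells 6 rose and 5 fell, with a median of −0.03. Unfolded protein response genes rose in 4 and fell in 1 of 8 cases in wild type cells, and in 2 and 1 in APOE KO cells. Mitochondrial ribosome genes moved mostly upward, with 34 of 52 higher and 2 lower in wild type and 28 higher and 0 lower in APOE KO cells. Of the scaffold genes Aimp2 rose by 0.30 ± 0.07 and Eef1e1 fell by 0.43 ± 0.15 in wild type cells, and Aimp1 fell by 0.29 ± 0.08 in APOE KO cells. Other tRNA charging genes rose in 7 and fell in 3 of 15 cases in wild type and in 6 and 1 in APOE KO cells. Interferon genes rose in 7 and fell in 1 of 12 cases in wild type and rose in 9 in APOE KO cells. Microglia markers summed to 679 to 737 TPM with oleic acid and 257 to 270 TPM untreated in APOE KO cells, and to 533 to 591 TPM with oleic acid and 308 to 337 TPM untreated in wild type cells. The fibroblast and mural sum was 2414 to 2906 TPM with oleic acid and 3853 to 3919 TPM untreated in APOE KO cells, and 1898 to 2175 TPM with oleic acid and 4191 to 4613 TPM untreated in wild type cells. The part of these shifts in the results was not tested.

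The fatty acids were then compared directly, as 1 pair in each genotype. Whether their doses and times matched is unstated. In wild type cells the cytosolic sum was 1480 TPM with oleic acid and 3384 TPM with palmitic acid, and of the cytosolic genes 18 were lower and 1 higher with oleic acid (limma, 58.2% of all genes passed, 25.8% lower and 32.4% higher). Mars1 measured 52.2, 59.4 and 49.2 TPM with oleic acid, against 198, 198 and 211 TPM with palmitic acid (−1.90 ± 0.09, limma adjusted p = 3.4e-13). Tars (−1.86 ± 0.09), Cars (−1.81 ± 0.10), Gars (−1.76 ± 0.04), Nars (−1.75 ± 0.08) and Lars (−1.73 ± 0.14) followed. Qars was higher with oleic acid by 0.70 ± 0.08, as were Cars2 (0.63 ± 0.09), Fars2 (0.43 ± 0.12) and Vars2 (0.40 ± 0.14), the last of which lost the call under median-ratio scaling. Dars did not pass, at −0.25 with a 95% confidence interval of −0.64 to 0.14.

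In APOE KO cells 19 of 20 cytosolic genes were lower with oleic than with palmitic acid and Dars was higher (limma, 69.7% of all genes passed, 16% lower and 53.7% higher). The median over all genes was 0.41, against −0.94 for cytosolic and 0.04 for mitochondrial genes, and median-ratio scaling set these at 0.04, −1.46 and −0.44. Cars (−1.83 ± 0.10), Wars (−1.74 ± 0.06), Sars (−1.70 ± 0.06), Gars (−1.69 ± 0.04), Iars (−1.57 ± 0.07) and Yars (−1.45 ± 0.07) led. Dars measured 91.9, 83.8 and 82.0 TPM with oleic acid, against 20.9, 46.2 and 37.5 TPM with palmitic acid (1.35 ± 0.19, limma adjusted p = 1.6e-06). Rars2 and Mars2 were higher by 0.86 and 0.76. Median-ratio scaling gave 0.83 for Dars, 0.37 for Rars2 and 0.48 for Mars2, all still called. Iars2 (0.58 ± 0.11) and Hars2 (0.37 ± 0.09) were also called higher, but median-ratio scaling brought them to 0.07 and −0.12 without a call. Of mitochondrial genes 3 were lower and 5 higher.

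Untreated APOE KO astrocytes held more synthetase RNA than untreated wild type astrocytes. The cytosolic sum was 1623 ± 16.4 TPM in APOE KO and 1304 ± 32.6 TPM in wild type cells, 1.24-fold. Of the cytosolic genes 15 were higher and of the mitochondrial genes 5, and none was lower (limma, 44.9% of all genes passed, 23.9% higher and 21.1% lower). The medians were 0.37 for cytosolic, 0.20 for mitochondrial and 0.05 for all genes. Rars measured 75.0, 76.7 and 73.8 TPM in APOE KO cells, against 54.0, 46.7 and 46.5 TPM in wild type cells (0.61 ± 0.12, limma adjusted p = 0.00026). Gars measured 101, 104 and 106 TPM in APOE KO cells, against 71.5, 70.0 and 70.2 TPM in wild type cells (0.55 ± 0.04, limma adjusted p = 3.8e-11). Aars2 was higher by 0.58 ± 0.11, Tars and Hars2 by 0.50 ± 0.09 each and Cars by 0.45 ± 0.10. Under median-ratio scaling these 6 kept their direction and passed, and 16 synthetases were called higher in place of 20. Asns, from the ATF4 list, averaged 55.5 TPM in APOE KO and 29.9 TPM in wild type cells, and of that list 14 genes were higher and 7 lower. Summed astrocyte markers were 461 to 473 TPM in APOE KO and 1942 to 2186 TPM in wild type cultures, and the part of that difference and of the difference in Xist and Ddx3y in these results was not tested.

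Neuronal conditioned medium lowered several cytosolic synthetases in APOE KO astrocytes. The cytosolic sum was 1470 ± 15.2 TPM with medium and 1623 ± 16.4 TPM untreated. Of the cytosolic genes 9 fell and of the mitochondrial genes Tars2 fell, and none rose (limma, 31.2% of all genes passed, 12.6% lower). Rars measured 53.1, 50.2 and 54.0 TPM with medium, against 75.0, 76.7 and 73.8 TPM untreated (−0.51 ± 0.12, limma adjusted p = 0.0022). Gars measured 90.4, 89.6 and 85.7 TPM, against 101, 104 and 106 TPM untreated (−0.22 ± 0.04, limma adjusted p = 4.6e-05). Cars and Farsb fell by 0.26 each, Tars by 0.25 and Vars by 0.23. Cars, Farsb, Tars and Vars lost their calls when single libraries were left out, and Cars, Tars and Vars without the untreated library whose title carries the word mix. The count of calls, 10 in all, was 5 without medium library 3 or without untreated library 2, and 6 without untreated library 1 or untreated library 3. Of the ATF4 list 7 genes rose and 7 fell. Summed astrocyte markers were 1050 to 1148 TPM with medium, against 461 to 473 TPM untreated, and their part was not tested. The genotype comparison, each treatment against untreated in APOE KO cells and the interaction terms use the same untreated APOE KO libraries. Their results are therefore not independent. Rars averaged 75.1 TPM in those libraries and 49.1 TPM in untreated wild type cells. In APOE KO cells it averaged 52.5 TPM with medium, 49.1 TPM with oleic acid and 89.1 TPM with palmitic acid.

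In wild type astrocytes no synthetase was called with medium from APOE KO neurons or from normal neurons, or between the media. Over all genes 1.5%, 0.0371% and 1.42% passed in these comparisons at an adjusted p under 0.05. At an unadjusted limma p under 0.05 there were 2, 2 and 4 synthetases. The share of all genes at that unadjusted threshold is not given here, so these counts cannot be set against a background. The cytosolic sum was 1292 ± 15.8 TPM with APOE KO neuronal medium, 1282 ± 17.6 TPM with normal neuronal medium and 1304 ± 32.6 TPM untreated. The effect of medium differed between genotypes, APOE KO minus wild type, for Aars2 (−0.51 ± 0.15), Kars (−0.23 ± 0.06) and Hars (−0.18 ± 0.06), where 18.5% of all genes passed, 6.95% lower. All 3 lost the call under median-ratio scaling. Kars kept its call whenever a single library was left out, while 1 call in all was left without APOE KO medium library 3, wild type medium library 1 or wild type untreated library 3.

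**Figure D4:**
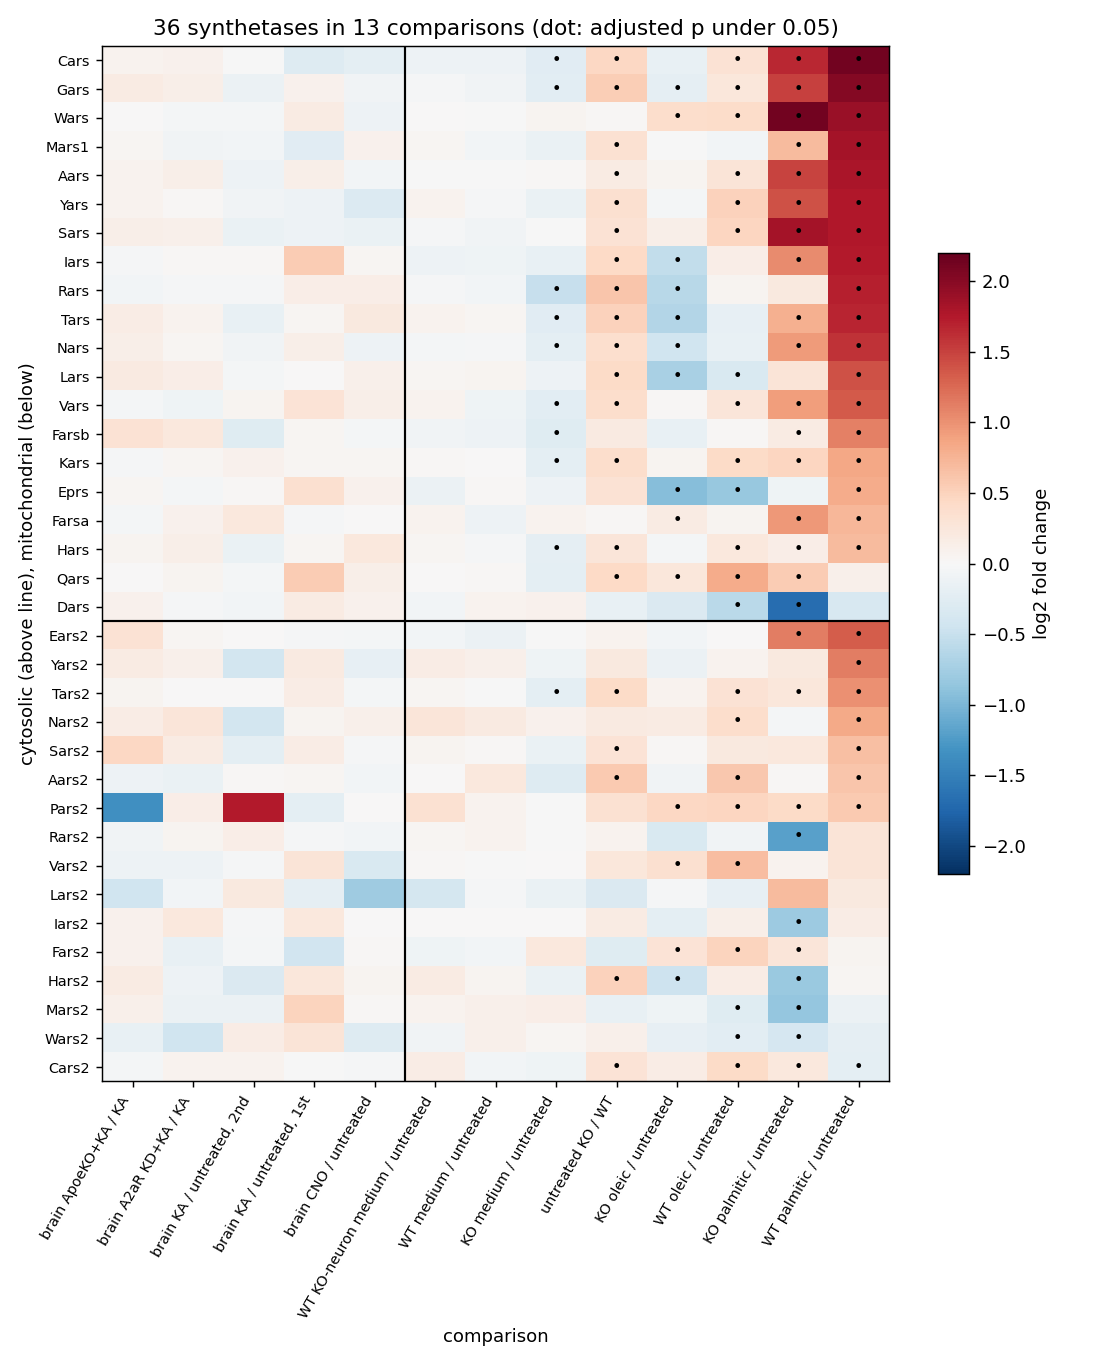
Log2 difference of 36 synthetases (rows, cytosolic above the horizontal line) in 13 comparisons (columns, brain left of the vertical line), with a dot where the adjusted p was under 0.05. The palmitic acid columns carry the strongest colours, and the 5 brain columns and the columns of medium on wild type cells hold no dot.

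In brain no synthetase passed the test in any comparison, and few of all genes did. The background was low except with CNO: 0.183% of all genes passed for KA in the first cohort and 3.7% for CNO (limma). It was 0.112% for the APOE knockout with KA against KA, 0.0386% for the A2aR knockdown with KA against KA and 0.0558% for KA in the second cohort (edgeR quasi-likelihood test on counts). DESeq2 on the same counts called no synthetase either. With shares of all genes this low, the absence of calls among the synthetases says little about them. At an unadjusted p under 0.05 there were 0 synthetases for KA in the first cohort (13.5% of all genes), 3 for CNO (16.1%), 5 for the APOE knockout (9.33%), 3 for the A2aR knockdown (9.25%) and 5 for KA in the second cohort (6.72%). The last 3 comparisons share the KA libraries. In these tissue libraries fewer cells of a type and less RNA per cell cannot be told apart.

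The cytosolic sum was 1089 ± 8.55 TPM with KA and 1046 ± 76.1 TPM untreated in the first cohort (SD, n = 3 each), and 1241 ± 16.6 TPM with CNO and 1268 ± 69.6 TPM untreated. In the second cohort it was 1385 ± 28.5 TPM with the APOE knockout and KA, 1310 ± 94.9 TPM with the A2aR knockdown and KA, 1338 ± 76.5 TPM with KA alone (n = 4) and 1405 ± 26.5 TPM untreated. The ratio of means lay between 0.952 and 1.04 in the 5 comparisons. With KA in the first cohort the cytosolic median was 0.06 beside 0.25 for all genes, and −0.23 beside −0.02 under median-ratio scaling, so its direction flipped with the scaling. Sars, Nars and Gars were the highest synthetases of brain. Sars was 139 to 156 TPM with KA and 145 to 172 TPM untreated in the first cohort, and 200 to 207 TPM with CNO and 209 to 248 TPM untreated. In the untreated first cohort library 3 was low for Eprs (17.4 TPM, against 36.2 and 36.8 TPM in the other untreated libraries) and Rars2 (11.4, against 19.2 and 22.2 TPM). That library also had 9.01% of its TPM in mitochondrially encoded genes, against 16.1 and 15.9% in the other untreated libraries. It had 14034 genes at 1 TPM or more, against 14986 and 15068, and neuron markers summed to 1907 TPM, against 3382 and 3162 TPM. The untreated spread in this cohort therefore leans on 1 library that stands apart.

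None of the largest brain differences passed. Pars2, the mitochondrial proline enzyme, measured 7.51, 1.60, 7.14 and 4.58 TPM with KA in the second cohort, against 2.30, 3.37 and 2.22 TPM untreated (log2 difference of counts 1.74 ± 0.57, edgeR adjusted p = 0.64), while the ratio of its mean TPM was 1.98. It measured 6.44, 2.39 and 4.64 TPM with the APOE knockout and KA (−1.35 ± 0.56 against KA alone, edgeR adjusted p = 0.49). Its levels in KA libraries ran from the lowest to the highest of the cohort, so the groups overlapped. Yars2, the mitochondrial tyrosine enzyme, measured 13.1, 12.6, 13.2 and 12.5 TPM with KA, against 16.3, 16.9 and 17.5 TPM untreated. All KA libraries lay below all untreated ones (−0.41 ± 0.12), yet the difference did not pass (edgeR adjusted p = 0.53), and sex cannot be told apart from KA here. Lars2 measured 42.0, 24.7 and 33.3 TPM with CNO, against 39.3, 76.7 and 59.7 TPM untreated, with overlap (−0.78 ± 0.26, limma adjusted p = 0.19). Yars measured 70.5, 62.8 and 65.6 TPM with CNO, against 92.0, 77.1 and 76.4 TPM untreated, without overlap (−0.30 ± 0.10, limma adjusted p = 0.19).

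Wars is known as an interferon-induced synthetase in human cells, so it was set beside the interferon list. With KA in the first cohort 5 of 12 interferon genes rose, with a median of 2.65 and Irf7 at 44.7 TPM with KA and 2.0 TPM untreated, while Wars measured 59.7, 67.3 and 60.5 TPM with KA, against 61.8, 55.6 and 48.5 TPM untreated. With CNO 8 of 12 rose, with a median of 2.0 and Cxcl10 at 46.8 TPM with CNO and 0.547 TPM untreated, while Wars measured 66.2, 62.1 and 66.4 TPM, against 75.8, 66.0 and 69.0 TPM untreated. The groups of Wars overlapped in both sets. In the second cohort no interferon gene passed, and Wars ran from 37.8 to 95.7 TPM within and across groups. Of the ATF4 list 0 genes rose with KA in the first or second cohort, and Atf3 and Nupr1 rose with CNO. No gene of the scaffold, unfolded protein response, mitochondrial ribosome or other tRNA charging lists passed for KA or CNO. Of all genes 0.183% passed for KA in the first cohort, 0.0558% for KA in the second and 3.7% for CNO. The absence of calls in such short lists therefore says little about them. Microglia markers summed to 912 to 2222 TPM with KA and 390 to 452 TPM untreated in the first cohort, and astrocyte markers to 3216 to 3627 TPM with CNO and 1105 to 1235 TPM untreated, and their part was not tested.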

How the data were processed

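RNA-seq libraries (TruSeq kit, per the labels' protocols) were deposited as 4 tables. TPM values per gene were deposited by the authors for astrocytes, CNO brains and the first KA cohort, and counts per gene with TPM values were deposited for the second KA cohort, per the file headers. HISAT2, StringTie, RSEM and mm10 are named in the submitters' processing notes, with no role, version or strand setting. Depth is known for the second cohort only, 68760648 to 76643829 counts a library, so for the TPM tables no counting interval can be given.

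From the TPM values, log2(TPM + 1) was tested with limma 3.58.1 (trend, R 4.3.3) on genes with at least 1 TPM in at least 3 libraries, with the 9 astrocyte groups in a single fit. Fold changes on this scale understate the change of low genes. Counts were tested with edgeR 4.0.16 (quasi-likelihood, TMM, filterByExpr), with the 4 groups of the second cohort in a single fit. P-values were adjusted by Benjamini-Hochberg over all genes tested, with calls under 0.05. DESeq2 1.42.0, median-ratio scaling, a pseudocount of 0.1, no filter, only the groups compared, a replicate block, the libraries titled mix left out and each library left out in turn were the alternatives. The fits were also run on simulated data in which few genes changed, unlike the fatty acid comparisons, so nothing is concluded from that run.

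Replicate numbers pair the samples only in the CNO set, where deviations of same-numbered libraries correlated at 0.119 to 0.244 over 3 pairs, a hint from the data and not from the labels. With that block 928 genes in place of 571 passed for CNO, and 0 synthetases in either fit. The synthetases, the partner lists (scaffold, ATF4 and amino acid response, unfolded protein response, mitochondrial ribosome, other tRNA charging, interferon) and the marker lists were chosen with earlier results of these data known. Named genes are up to 6 largest rises and 6 largest falls a comparison and up to 4 genes a list with the smallest p. Others named were chosen after their values were seen. Promoter windows came from RefSeq, GRCm38.p6, and gene overlaps from GENCODE on mm10. Values of 1 mitochondrial synthetase are counted among the members but not reported by name or drawn on its own.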

Additional observations from a re-analysis of the deposited data

Results flagged for a closer look

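In the KA libraries of the second cohort 2 values stood far from the other 3. Eprs was at 49.4 TPM in library 2, against 42.1 to 42.4 TPM in the others, and Rars2 was at 20.8 TPM in library 3, against 26.1 to 26.8 TPM. These are 2 of 37 genes looked at in this group, and chance gives about 1 in 20.

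The response of APOE KO astrocytes differed from that of wild type astrocytes by the limma interaction term for the genes below, given as APOE KO minus wild type on the log2 scale. For palmitic acid it was −1.48 for Rars, −1.47 for Rars2, −1.32 for Dars, −1.13 for Mars1, −1.12 for Lars and −0.95 for Iars2, and 0.45 for Qars, 0.45 for Cars2 and 0.21 for Farsa, the last of which lost its call in many alternatives. For oleic acid it was −0.67 for Iars, −0.66 for Rars, −0.66 for Aars2, −0.62 for Hars2, −0.56 for Qars and −0.55 for Yars. For neuronal medium it was −0.51 for Aars2, −0.23 for Kars and −0.18 for Hars, and all 3 lost the call under median-ratio scaling (limma adjusted p = 0.073 for Aars2, 0.26 for Kars and 0.18 for Hars).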

How the results depend on the processing

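Of 1219 alternatives over 95 named results, 1114 kept direction and side of the threshold, 104 kept direction but lost the call, and 1 reversed: Hars2, oleic against palmitic acid in APOE KO cells, was −0.12 under median-ratio scaling. For medium on APOE KO cells 10 synthetases were called, and 6 with no filter or without the libraries titled mix. For the medium interaction 3 were called, 1 under median-ratio scaling and 6 with only the groups compared. The cause was not tested. Leaving out each library gave 18 to 24 calls for oleic and 25 to 27 for palmitic acid in wild type cells, 27 to 29 between them, 17 to 20 for genotype, 5 to 8 for medium, 11 to 15 for oleic and 25 to 29 for palmitic acid in APOE KO cells, 27 to 28 between them, and 1 to 3, 12 to 15 and 27 to 30 for the medium, oleic and palmitic interactions. In the 5 brain comparisons and the 3 of medium on wild type cells it gave 0. Where an arm kept fewer libraries the pooled spread was assumed.

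With the replicate number as a block, no count of synthetase calls moved by over 1.5 times: 25 rose and 0 fell with palmitic acid in wild type cells, 19 and 7 in APOE KO cells. Outside the CNO set the samples share only a number. For the A2aR knockdown against KA alone, no paired analysis was possible because these groups share only 1 number. Over all genes DESeq2 called 138, 275 and 235 genes for KA, the APOE knockout and the A2aR knockdown in the second cohort, against 13, 26 and 9 by edgeR. Without untreated library 3, KA in the first cohort gave 352 genes in place of 28, and 0 synthetases in both. The TPM tables hold no depth, which limits what can be said of low genes such as Mars2. For palmitic acid in APOE KO cells the log2 difference correlated with transcript length at −0.29 over all genes and −0.0715 over synthetases (Spearman). For KA in the first cohort these values were 0.36 and 0.385. The part of length was not tested.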
